A study of Mus musculus with 8 samples.

Results

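The miR-199 and miR-214 family was followed across amniotic-fluid exosomes of pregnant mice. Its 6 mature miRNAs (mmu-miR-199a-5p, mmu-miR-199a-3p, mmu-miR-199b-5p, mmu-miR-199b-3p, mmu-miR-214-3p and mmu-miR-214-5p, written without the species prefix from here on) were chosen by name, without use of their values. Of these names, 5 are among the 1881 miRNAs on the array. The sixth, miR-199b-3p, has the same mature sequence as miR-199a-3p and is read by the same probes. All 5 entered the test, which covered the 470 miRNAs detected, that is well above background, in 3 or 4 arrays of either group.

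Exosomes, membrane-bound vesicles shed by cells, were isolated from the fluid by size exclusion, and their RNA was hybridised to single-colour Agilent miRNA arrays, 1 per sample. The LPS group (n = 4) comes from mice given 100 μg per kg of lipopolysaccharide, a bacterial outer-membrane component that provokes inflammation, in the peritoneum on day 14 of pregnancy, with preterm birth about 48 h later. The fluid of this group was taken from embryos with intact membranes once vaginal bleeding was seen. The control group (n = 4) comes from cesarean sections. Whether the controls were injected, the strain, and whether the arrays of a group come from separate mice are not given in the labels, so p-values measure the spread between arrays. Every sample carries the label of day 17 of pregnancy, which an injection on day 14 and a birth about 48 h later do not match. A miRNA array holds no marker that defines amniotic-fluid exosomes, so that label could not be checked here.

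miR-199a and miR-214 are known as miRNAs of mesenchyme, the embryonic connective tissue that gives rise to bone, cartilage, fibroblasts and smooth muscle. One of the miR-199a genes and the miR-214 gene are processed from the same long noncoding RNA, Dnm3os, which lies opposite an intron of the dynamin gene Dnm3 and is required for normal skeletal growth in mice. The transcription factor Twist1 is known to activate it. In the pregnant mouse uterus the cluster has been described as a repressor of the prostaglandin-forming cyclooxygenase Ptgs2.

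The mature sequences are shown because they decide which arms share targets and which arms the array can tell apart. They are written 5′ to 3′ from RefSeq (GRCm38.p6), with the seed, bases 2 to 8, in capitals.
miR-199a-5p: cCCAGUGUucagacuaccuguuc
miR-199a-3p: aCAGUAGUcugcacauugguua
miR-199b-3p: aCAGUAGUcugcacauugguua
miR-214-3p: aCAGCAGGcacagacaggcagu
miR-214-5p: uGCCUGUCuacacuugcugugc
The table gave 5 of the 6 mature sequences, and miR-199b-5p is named only. The 3p arms of miR-199a and miR-199b are identical over their 22 bases and share the seed CAGUAGU. The seeds of miR-199a-5p, miR-214-3p and miR-214-5p differ from it and from each other. Outside the family, miR-761 shares the seed CAGCAGG of miR-214-3p, and it was above background on 0 arrays.

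The 4 hairpins lie at 3 places in the genome, each within a dynamin gene. On GRCm38.p6, Mir199a-2 is at chr1:162217814-162217923 and Mir214 at chr1:162223368-162223477, both on the plus strand and 5444 bases apart. Both fall within the noncoding transcript Dnm3os (chr1:162217623-162225550), which itself lies inside Dnm3. Mir199b is at chr2:32318460-32318569 within Dnm1. Mir199a-1 is at chr9:21496495-21496564 on the minus strand within Dnm2. miR-3120-5p and miR-3120-3p, which share the miR-214 locus, have no probe on this array.

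The probes are shown because they set which gene each value can be assigned to. They are written 5′ to 3′ as DNA, and capitals mark the base by which the probes of miR-199a-5p and miR-199b-5p differ.
miR-199a-5p probe: gaacaggtagtctGaacac
miR-199b-5p probe: gaacaggtagtctAaacactgg
miR-199a-3p probe: taaccaatgtgcagactact
miR-214-3p probe: actgcctgtctgt
miR-214-5p probe: gcacagcaagtgtagac
Over the 19 bases compared, the 2 5p probes differ only by G14A, counted from the 5′ end of the probe with the miR-199a-5p base first. The miR-199b-5p probe matches the Mir199b hairpin alone, and the miR-199a-5p probe matches Mir199a-1 and Mir199a-2. The miR-199a-3p probe matches all 3 miR-199 hairpins, so its signal belongs to miR-199a-3p and miR-199b-3p together. Cross-hybridisation between the 5p probes, which differ by 1 base over that stretch, was not tested.

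Levels are given as scaled signal on the log2 scale. Each array was divided by the 75th percentile of the 618 probes detected on all 8 arrays, and values below the detection floor of 13.5 (log2 3.75) were set to it. In the cesarean arrays 1 to 4 miR-199a-5p had scaled signals of 8.57, 9.32, 8.39 and 8.91. The LPS arrays 1 to 4 gave 8.14, 7.35, 7.97 and 7.63, all below the lowest cesarean array. The mean was 8.80 ± 0.41 (SD, n = 4) in cesarean and 7.77 ± 0.36 (SD, n = 4) in LPS exosomes. The log2 difference, LPS minus cesarean, was -1.03 ± 0.28 (SE; 95% interval -1.65 to -0.40), or 2.03-fold lower. In limma's moderated test, p was 0.00447 and adjusted p over all 470 tested miRNAs was 0.0640, above the threshold of 0.05. miR-199a-5p is known to repress regulators of hypoxia and NF-κB signalling.

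The 3p arms of miR-199a and miR-199b, known to repress the kinase Mtor and the receptor Met, were read together at 10.13, 10.87, 9.66 and 10.35 in cesarean exosomes. In LPS exosomes their scaled log2 signals were 9.72, 9.00, 9.59 and 8.78. The groups overlapped, since LPS array 1 lay above cesarean array 3. Group means were 10.25 ± 0.50 and 9.27 ± 0.45 (SD, n = 4 each). The log2 difference of -0.98 ± 0.32 (SE; 95% interval -1.70 to -0.26), 1.97-fold lower in LPS, had an adjusted p of 0.0907 in limma.

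miR-199b-5p, whose probe matches the Dnm1 locus alone, had log2 signals of 8.59, 9.30, 8.50 and 8.99 in cesarean exosomes. The LPS values were 8.37, 7.61, 8.07 and 7.84. The groups did not overlap, and LPS array 1 and cesarean array 3 came closest to each other. Means were 8.84 ± 0.37 and 7.97 ± 0.32 (SD, n = 4 each). The log2 difference was -0.87 ± 0.27 (SE; 95% interval -1.47 to -0.28), or 1.83-fold lower, with an adjusted p of 0.0771 in limma.

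miR-214-3p, the main arm of the miR-214 hairpin, is known to repress Ezh2, a histone methyltransferase. Its log2 signals were 8.36, 9.60, 8.09 and 9.16 in cesarean and 7.79, 7.12, 7.90 and 7.02 in LPS exosomes. The groups did not overlap, and the cesarean arrays spread more widely than the LPS arrays. Means were 8.80 ± 0.70 and 7.46 ± 0.45 (SD, n = 4 each). Its log2 difference of -1.34 ± 0.37 (SE; 95% interval -2.17 to -0.52), 2.54-fold lower, was the largest in the family and ranked 9 from the lowest among the 470. The adjusted p in limma was 0.0640.

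miR-214-5p, the less abundant arm of the same hairpin, was near the limit of detection. It was well above background on 3 of 4 cesarean arrays, and its log2 signals were 3.75, 4.69, 3.75 and 4.18, where 3.75 is the floor. All LPS arrays were at the floor, and 0 of 4 were above background. A bound was therefore taken in place of a fold: the cesarean mean before flooring (log2 3.78) against the mean, over the LPS arrays, of each array's own lowest signal above background (log2 3.66), which makes it at least 1.09-fold higher in cesarean exosomes. The fit on floored values gave -0.34 with an adjusted p of 0.433 in limma. This miRNA entered the test only through the cesarean arrays, so the sign of that value and the direction of the bound were set by the filter. The bound carries no measure of spread. With the authors' deposited values the log2 difference of miR-214-5p was -0.05.

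**Figure D1:**
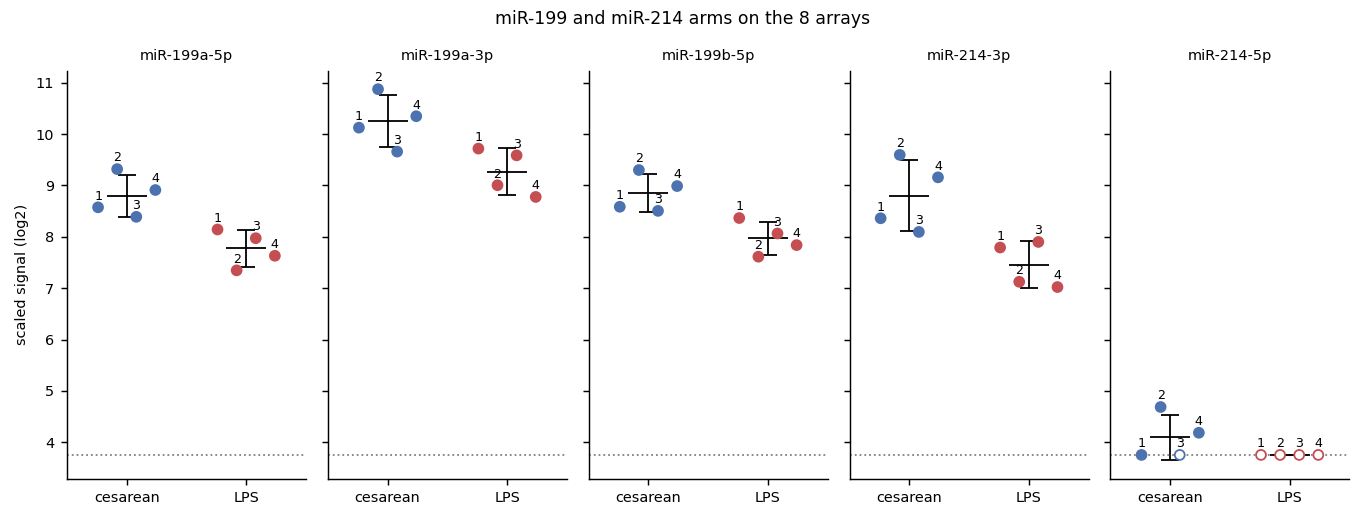
Scaled signal (log2) of the 5 measured arms on each array, with replicate numbers beside the points. Horizontal lines are group means, bars are SD (n = 4), the dotted line is the detection floor at 3.75, and hollow points are arrays where the miRNA was not above background. miR-199a-5p, miR-199b-5p and miR-214-3p do not overlap between groups, miR-199a-3p does, and miR-214-5p lies at the floor in LPS.

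None of the arms passed: 0 of 5 had an adjusted p under 0.05 in limma, where 2.34% of all tested miRNAs were called lower and 4.89% were called in either direction. At an unadjusted p under 0.05, 4 of 5 were lower, against 11.3% of the tested miRNAs. Groups did not overlap, with LPS lower, for 3 of 5, against 7.23% of the tested miRNAs. The 4 arms detected on all arrays had differences below 0, as did 54.5% of all tested miRNAs, whose median was -0.06.

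The non-overlap depended on the scaling. With signals left unscaled, scaled to the spike-in probes, or scaled to the 75th percentile of all probes, 0 of 5 arms were separated, while the differences of the 4 arms detected on all arrays were below 0 under each of these scalings. Without scaling the median of all 470 differences was -0.20, and the log2 differences were -1.17 for miR-199a-5p, -1.13 for miR-199a-3p, -1.02 for miR-199b-5p and -1.49 for miR-214-3p. The adjusted p-values in limma were then 0.270 to 0.396 for these arms, when 0.213% of all tested miRNAs were called, as with the spike-in scaling.

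Leaving out LPS array 1 moved most of the family across the threshold. That array had the highest value of its group for miR-199a-5p, miR-199a-3p and miR-199b-5p, while LPS array 3 was highest for miR-214-3p. Without LPS array 1, 4 of 5 arms passed in limma, when 7.45% of the tested miRNAs were called lower and 16.8% in either direction. Why the calls rose was not tested. The log2 differences were then -1.15 for miR-199a-5p (adjusted p 0.0290), -1.13 for miR-199a-3p (0.0404), -1.01 for miR-199b-5p (0.0342) and -1.45 for miR-214-3p (0.0321). Leaving out any other array gave 0 of 5.

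**Figure D2:**
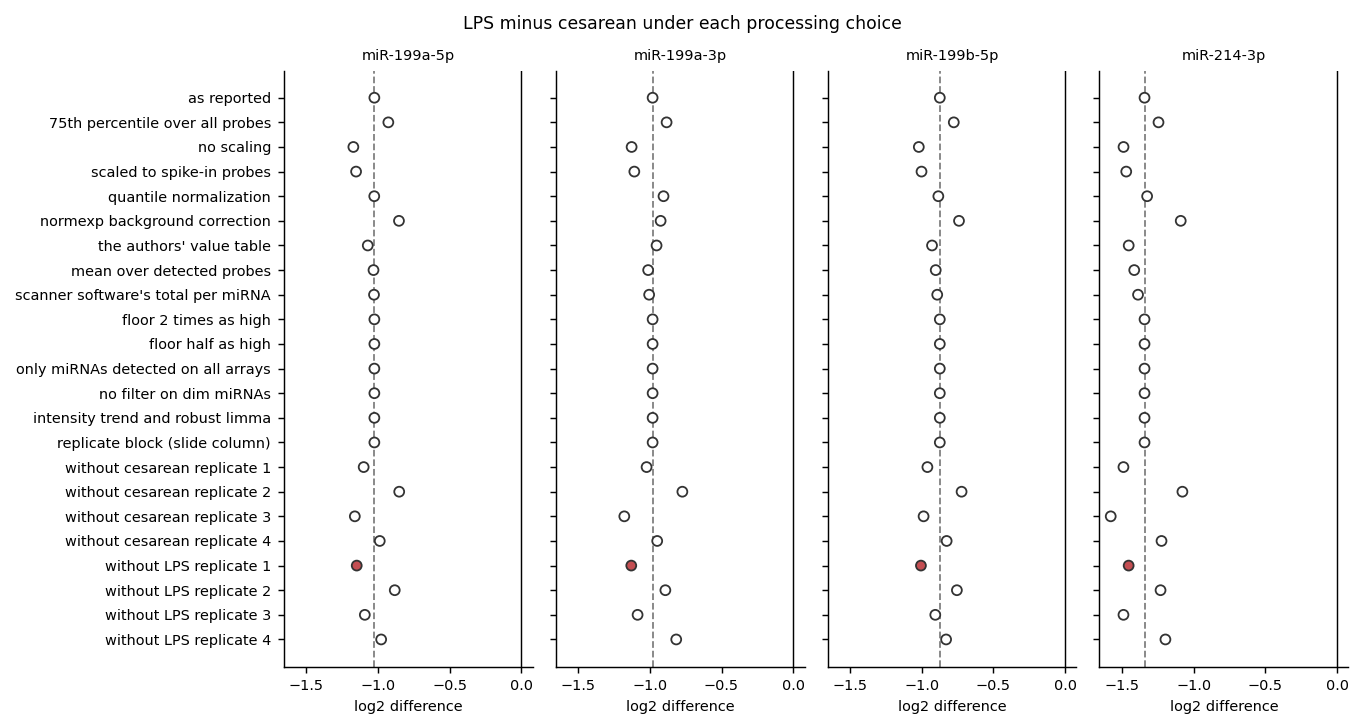
Log2 difference, LPS minus cesarean, of the 4 arms detected on all arrays under each processing choice and each array left out. Filled points passed at an adjusted p of 0.05 in limma, the dashed line is the value as reported, and the solid line is 0. All points lie below 0, between -1.58 and -0.72, and the filled points are those without LPS array 1.

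Each arm was read by 2 to 4 probes of different length on the array, 12 in all, of which 9 were tested among 887 probes. The probe of 12 bases for miR-214-3p passed, with a log2 difference of -1.49 ± 0.37 (SE) and an adjusted p of 0.0460 in limma. This call was lost without scaling and with normexp background correction, where 0 of 9 probes passed. Its log2 signals were 7.26, 8.53, 6.98 and 8.08 in cesarean and 6.53, 5.88, 6.66 and 5.83 in LPS exosomes, with no overlap. The probe of 13 bases, the brighter of the pair, gave -1.34 with an adjusted p of 0.0609. Of the 9 probes 1 was called, against 2.93% of all tested probes called lower and 5.75% called in either direction.

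The probes of an arm gave similar differences. Those of miR-199a-5p gave -1.03 and -1.04 on the log2 scale (adjusted p 0.0606 for both in limma). For miR-199b-5p the probe of 21 bases gave -0.93 and that of 22 bases -0.87. For miR-199a-3p the probe of 19 bases gave -1.04, with all LPS arrays below all cesarean arrays, while the brighter probe of 20 bases gave -0.98 with an overlap. Thus 7 of 9 probes were separated with LPS lower, against 8.34% of all probes tested. The probes of an arm overlap in sequence, and the arms followed each other over the same arrays. The 9 probes are therefore not separate observations. Whether the probes stay separated under the scalings that removed the separation of the arms was not tested. The probes of 14, 15 and 16 bases for miR-214-5p were above background on 0 arrays.

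**Figure D3:**
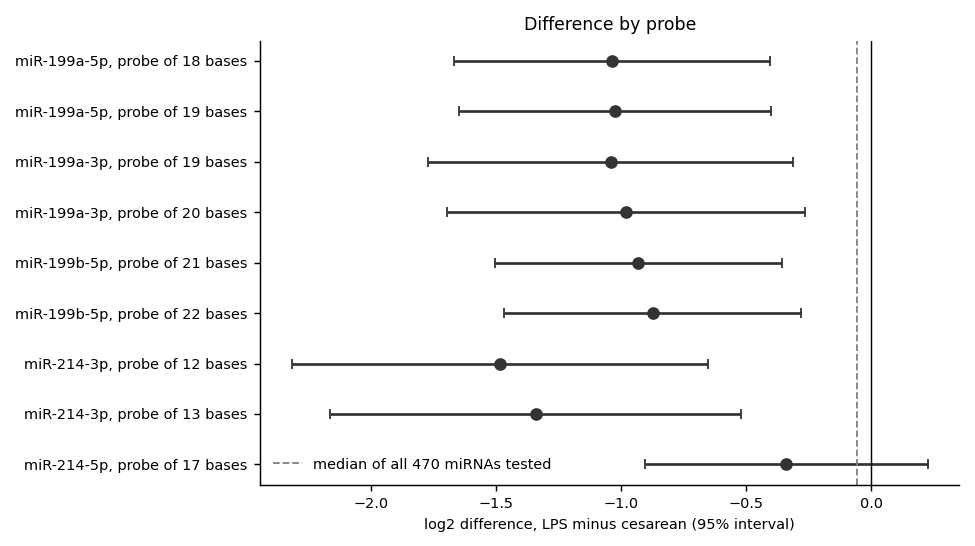
Log2 difference, LPS minus cesarean, of the 9 tested probes of the family, with 95% confidence intervals from limma. The dashed line marks the median of all 470 miRNAs (-0.06) and the solid line 0. The intervals of the 8 probes for miR-199a, miR-199b and miR-214-3p lie below 0, and that of miR-214-5p crosses it.

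The arms were compared with each other within arrays, a measure that scaling between arrays cannot alter. Over 6 pairs of the 4 arms detected on all arrays, 0 differed in their LPS response after Benjamini-Hochberg adjustment (two-sided exact permutation test over 70 allocations, smallest possible p 0.0286). With 6 pairs and that smallest p, a lone pair could not pass after adjustment. miR-214-3p had the more negative LPS difference in its comparisons, that is, it fell further. The gap was 0.47 against miR-199b-5p, 0.36 against miR-199a-3p and 0.32 against miR-199a-5p on the log2 scale (adjusted exact p 0.171, 0.171 and 0.257). miR-199a-5p, from the Dnm2 and Dnm3os loci, and miR-199b-5p, from Dnm1, differed in response by -0.15 (adjusted exact p 0.171). Between miR-199a-5p and miR-199a-3p, whose probe also reads miR-199b-3p, the response differed by -0.04 (adjusted exact p 0.686). With 4 arrays a group these values do not show that the arms respond alike.

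Across the 8 arrays the 4 arms followed each other closely. Pearson's r was between 0.959 and 0.996 over the 6 pairs, and Spearman's rho between 0.929 and 1. Adjusted exact permutation p-values were at most 0.000645 for r and 0.00223 for rho. Without the 2 arrays farthest from the median, r was between 0.944 and 0.989, and between deviations from the group means it was between 0.901 and 0.987. The highest pair was miR-199a-5p with miR-199b-5p, whose genes lie on different chromosomes and whose probes differ by 1 base over the compared stretch. The median r of miR-199a-3p with the 465 other tested miRNAs was -0.03, and the highest was 0.943. Cesarean array 2 was the highest and cesarean array 3 the lowest of the controls for each of these 4 arms.

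The 5 other miRNAs whose profile over the 8 arrays was most like that of miR-199a-3p were miR-130b-3p, miR-20b-5p, miR-218-5p, miR-125b-5p and miR-20a-5p. Likeness was the root mean square difference of centred log2 values, which was 0.240 to 0.288 for these miRNAs and 0.168 to 0.252 for miR-199a-5p, miR-199b-5p and miR-214-3p. miR-218-5p passed in limma, with a log2 difference of -1.24 ± 0.30 (SE; adjusted p 0.0467), but it passed under only 1 of the 21 alternatives that gave it a value. It was above background on 4 cesarean and 2 LPS arrays and entered the test through the cesarean arrays, so the difference is partly against values at the floor. miR-130b-3p had a difference of -1.13 (adjusted p 0.0744) and miR-125b-5p of -0.95 (adjusted p 0.0771) in limma. miR-20a-5p and miR-20b-5p, members of the miR-17 family, had differences of -0.59 and -0.69 and did not pass.

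**Figure D4:**
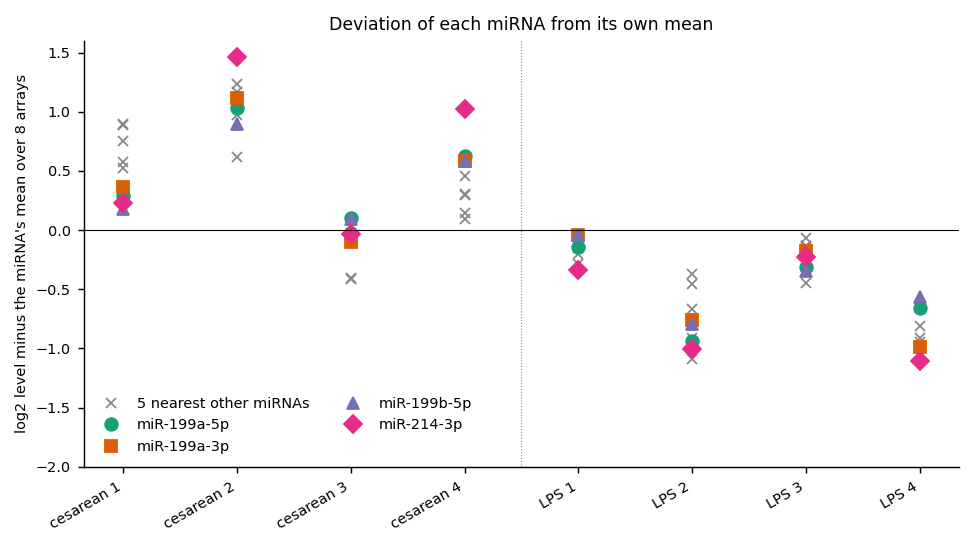
Deviation of each miRNA from its own mean over the 8 arrays, in log2 units, for the 4 detected arms and the 5 miRNAs with the most similar profile. Cesarean array 2 has the highest deviations of the family and LPS arrays 2 and 4 the lowest, while cesarean array 3 lies close to LPS arrays 1 and 3.

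The promoter of Dnm3os is shown because its transcript carries 2 of the 4 hairpins. The miR-199a probes also read the hairpin in Dnm2, so the miR-199a made from this transcript was not measured apart. The window covers 250 bases before and 50 after the RefSeq start, chr1:162217373-162217672 on the plus strand of GRCm38.p6, with E-boxes (CANNTG) and the CArG box in capitals.
Dnm3os promoter: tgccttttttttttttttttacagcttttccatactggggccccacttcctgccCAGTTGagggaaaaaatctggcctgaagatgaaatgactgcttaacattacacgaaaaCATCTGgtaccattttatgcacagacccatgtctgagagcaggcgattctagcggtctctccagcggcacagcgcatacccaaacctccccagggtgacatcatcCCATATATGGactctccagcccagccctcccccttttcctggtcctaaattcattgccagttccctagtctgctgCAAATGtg
The E-box, the element bound by Twist factors, has 3 matches at bases 55, 113 and 293 of the window, and 72.3% of 32851 promoters of this length hold at least 1. The CArG box, the element bound by serum response factor in muscle and mesenchymal genes, has 1 match at base 218, and 1.63% of the promoters hold 1 or more. Both elements read as the same motif on either strand, and the matches do not overlap. A match describes the letters of this window, and the arrays do not measure binding there.

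Other miRNAs of mesenchyme, smooth muscle, cartilage and matrix were mostly of the opposite sign to the family. Of 14 such miRNAs on the array 9 were tested, and 5 were above background on no array. All 9 differences were above 0, against 45.5% of all tested miRNAs, with a median of 0.35 against -0.06. Without scaling or with spike-in scaling 7 of 9 were above 0, and miR-140-5p and miR-29a-3p were below. The count above 0 was 6 of 9 with the scanner software's total and 8 of 9 with the mean over detected probes. It was 7 of 9 without cesarean array 1, cesarean array 3 or LPS array 1. None passed in limma (0 of 9), and 2 of 9 were higher at an unadjusted p under 0.05, against 13.8% of all tested miRNAs. Without LPS array 1, 1 of 9 was called higher, when 16.8% of all tested miRNAs were called in either direction. miR-29b-3p, which represses collagens, had a log2 difference of 0.85 (adjusted p 0.0817) with no overlap between groups. miR-145a-5p and miR-143-3p, the smooth-muscle pair, had differences of 0.71 (adjusted p 0.166) and 0.62 (adjusted p 0.241). The summed scaled signal of this list was 3703 to 7060 in cesarean and 4985 to 7420 in LPS exosomes. Most of it came from miR-21a-5p, with log2 means of 11.68 in cesarean and 12.03 in LPS exosomes. The cesarean means of miR-143-3p and miR-145a-5p were 6.45 and 4.39, so the sum says little about these. The summed signal of the family was 1794 to 3945 in cesarean and 1009 to 1689 in LPS exosomes. Here and below, a sum covers each listed miRNA on the array, and values below the floor enter it at the floor.

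Some markers of other cell types differed between the groups. Epithelial miRNAs rose for 3 of 7 tested, miR-200c-3p by 1.42, miR-200a-3p by 1.23 and miR-200b-3p by 1.08 on the log2 scale (adjusted p 0.0108, 0.0449 and 0.0410 in limma), where 2.55% of all miRNAs were called higher. These 3 calls were lost without scaling, with spike-in scaling and in a fit blocked on slide column, where 0 of 7 passed. Over 22 alternatives miR-200c-3p passed under 17, miR-200b-3p under 9 and miR-200a-3p under 7. miR-429-3p and miR-203-3p had differences of 0.91 and 1.49 and miR-205-5p of -0.17, and they did not pass, nor did miR-141-3p. The median over the list was 1.23, and the summed signal was 899 to 1198 in cesarean and 1590 to 4148 in LPS exosomes. Of the erythroid list 3 of 4 were tested and 1 passed, miR-144-3p (adjusted p 0.0175 in limma). It was above background on 0 cesarean arrays and entered the test through the LPS arrays, so its sign was set by the filter. The median of the erythroid list was 0.99, with sums of 8701 to 15763 and 14079 to 30969. Of 5 leukocyte miRNAs 3 were tested, with a median of 0.09, and miR-142a-3p rose by 1.23 (adjusted p 0.0325 in limma). miR-223-3p had a difference of 0.09 (adjusted p 0.874) and miR-342-3p of -0.45 (adjusted p 0.367), and the list had sums of 712 to 916 and 656 to 939. The erythroid and leukocyte calls were also lost without scaling, with spike-in scaling and with the slide-column block. Of the 21 alternatives that gave them a value, miR-144-3p passed under 12 and miR-142a-3p under 8.

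Of the 4 neural miRNAs 2 were tested. miR-9-3p fell by 3.34 on the log2 scale (adjusted p 0.0325 in limma), but it was above background on 4 cesarean arrays and 1 LPS array, so it entered the test through the cesarean arrays and the size is against values mostly at the floor. miR-128-3p had a difference of -0.26 (adjusted p 0.822). miR-9-5p and miR-124-3p were above background on 2 cesarean arrays and 0 LPS arrays. The summed signal was 139 to 1372 in cesarean and 57.3 to 132 in LPS exosomes. None of the 4 striated-muscle miRNAs passed (median 0.26, 0 at an unadjusted p under 0.05 in limma), with sums of 279 to 569 and 139 to 1846. For liver, miR-122-5p had a difference of 2.30 (adjusted p 0.211), with sums of 27.0 to 143 and 46.4 to 910. The liver sums include miR-122-3p, which was above background on 0 arrays, and the lowest cesarean sum holds floor values only. For endothelium and platelets, miR-126a-3p had a difference of -0.09 (adjusted p 0.896), with sums of 248 to 540 and 266 to 384. The part of these other cell types in the family's values was not tested, and fewer vesicles from a cell type cannot be told apart from less of a miRNA per vesicle.

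**Figure D5:**
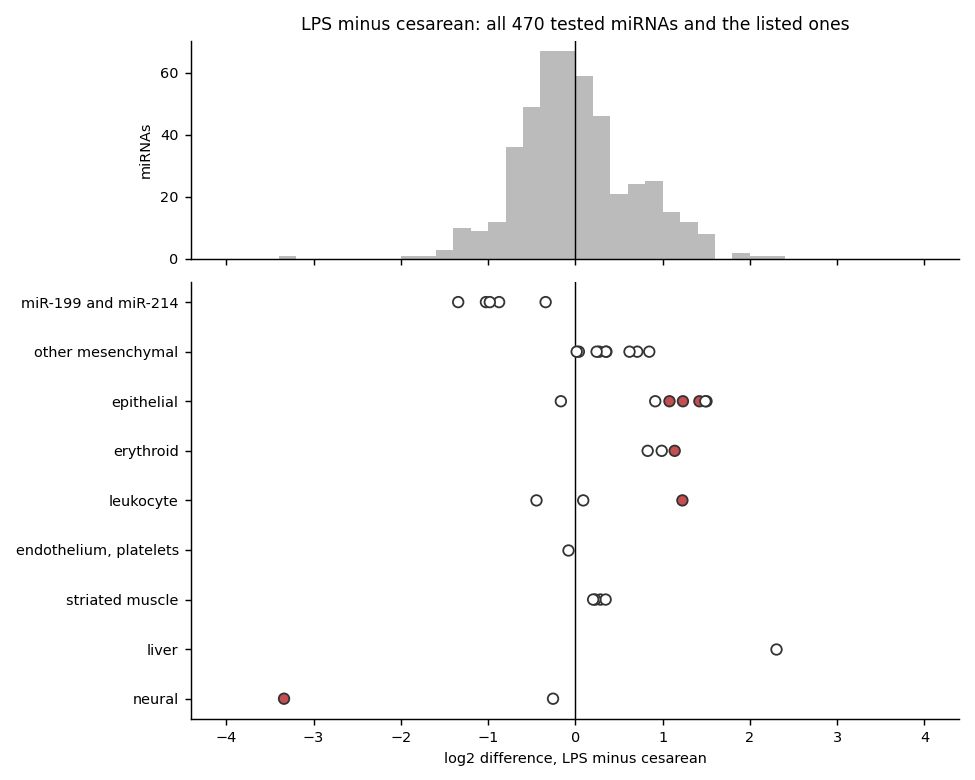
Log2 differences, LPS minus cesarean, as a histogram of all 470 tested miRNAs (upper panel) and as points for each listed miRNA (lower panel). Filled points passed at an adjusted p of 0.05 in limma. The family lies to the left of 0, between -1.34 and -0.34 (the last being miR-214-5p, at the floor in LPS), and the other mesenchymal miRNAs lie at or to the right of 0.

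Overall brightness differed between arrays more than between groups. Between 403 and 534 miRNAs were above background on an array, and the 75th percentile of signal was 211 to 448, with group means on the log2 scale of 8.20 in cesarean and 8.06 in LPS arrays. The LPS arrays occupy 1 row of the slide and the cesarean arrays the other, so slide row and group cannot be told apart. Within the slide columns 1 to 4, which hold 1 array of each group, the differences of miR-199a-5p were -0.43, -1.97, -0.42 and -1.28. Those of miR-199a-3p were -0.41, -1.87, -0.07 and -1.57, and those of miR-199b-5p were -0.22, -1.69, -0.44 and -1.15. For miR-214-3p they were -0.57, -2.47, -0.19 and -2.14. All 4 columns had lower LPS values for each of these arms, with the larger differences in columns 2 and 4. For miR-199a-5p, miR-199b-5p and miR-214-3p the groups did not overlap, so any pairing of arrays would give that sign. For each arm cesarean arrays 2 and 4 were the highest controls and LPS arrays 2 and 4 the lowest of their group. The labels pair no samples, so the columns add no separate support for the direction.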

How the data were processed

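Exosomal RNA of mouse amniotic fluid was measured on 8 single-colour arrays, 4 from LPS preterm births and 4 from cesarean sections, grouped by their labels. Per the labels, Cy3-labelled cRNA was made from 0.5 μg of RNA. The deposited intensity values are linear, background-subtracted spot signals from Agilent Feature Extraction 10.7.1.1, per the file headers, without normalization between arrays. The submitters' processing notes name version 9.1. The deposited value table is on the log2 scale and was normalized between arrays by the authors, by a method not given in the sources used here; it served as an alternative.

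Control spots and outlier spots were left out (2.99% to 3.48% of 56430 miRNA spots per array), and 0 miRNA spots were saturated. A probe was above background where a share of at least 0.5 of its spots was, by the scanner software. Signals were scaled by each array's 75th percentile over 618 probes, floored and put on the log2 scale, and the brightest probe stood for each miRNA. The LPS and cesarean arrays were tested with limma 3.58.1, run in R 4.3.3 (lmFit, eBayes, two-sided, Benjamini-Hochberg over all 470 miRNAs or 887 probes); the procedure was tried on simulated data. Other tools were Python 3.11.15 with pandas 2.3.3, numpy 2.4.6 and matplotlib 3.10.9, and the R package data.table (version 1.17.8). The number of arrays limits the precision. Hairpin positions are from RefSeq (GRCm38.p6), and the files' own probe positions are on mm9. No set of miRNAs was tested as a set.

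Named are the 6 family miRNAs, their locus neighbours, for each list the miRNAs that passed or else the smallest p, and the 5 most similar profiles. Further miRNAs of the lists and miR-761 were named after their values were seen. The members and lists were chosen with earlier results of these data known. Alternatives were other scalings, normexp, the authors' table, other summaries of probes, floors and filters, a robust fit, a block for slide column, and leaving out each array.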

Additional observations from a re-analysis of the deposited data

How the results depend on the processing

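Of all 470 tested miRNAs 23 passed in limma, 12 higher and 11 lower. The count was 13 (9 higher and 4 lower) when scaled to the 75th percentile of all probes, 1 without scaling, 1 when scaled to spike-in probes, 9 with normexp background correction, 6 with the scanner software's total per miRNA, 15 among the 336 miRNAs detected on all arrays, 2 without a filter on dim miRNAs, and 1 with the slide column as a replicate block. Leaving out 1 array gave 3 to 79, the highest without LPS array 1. The causes were not tested. Of the family's arms 0 passed under every alternative run, the replicate block included, except without LPS array 1, where leaving out 1 array gave 0 to 4. Of its 9 probes 1 passed, and 0 did without scaling or with normexp. Over 22 alternatives the log2 difference was -1.18 to -0.77 for miR-199a-3p, -1.17 to -0.85 for miR-199a-5p, -1.02 to -0.72 for miR-199b-5p and -1.58 to -1.08 for miR-214-3p, with adjusted p-values up to 0.423. In the pairs of arms 0 of 6 passed with normexp or with the value table, where a lone pair could not have passed. The labels pair no samples, and arrays share a column of the slide only by position. The low signal of miR-214-5p limits it to a bound.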

Other observations

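The scanner software's own total for miR-214-5p differed from the sum of its probes. On cesarean array 1 the total was 226 against 2.64 for its own probes, on cesarean array 2 it was 416 against 4.61, on cesarean array 4 it was 197 against 2.10, and on LPS array 3 it was 143 against 1.43. The totals of miR-214-3p on the same arrays were 224, 412, 195 and 142. The excess of the miR-214-5p total over its own probes was 223, 411, 195 and 141, near those miR-214-3p totals. With the software's total in place of the brightest probe, the log2 difference of miR-214-5p was -3.62. That value is therefore not a measure of miR-214-5p alone, and the origin of the excess was not tested. The brightest probe gave a fitted -0.34 with all LPS arrays at the floor, where only a bound is measured. On each array 100 to 149 detected miRNAs, of 466 to 634, had totals more than 5% above the sum of their own probes. In the authors' deposited table miR-214-5p lies between 2.02 and 2.12 on all 8 arrays.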
